A study of Mus musculus with 8 samples.

Results

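The 10 genes described here encode the kinases and phosphatases that carry a cell through its division cycle: the cyclin-dependent kinases Cdk1, Cdk2, Cdk4 and Cdk6, the phosphatases Cdc25a, Cdc25b and Cdc25c, the inhibitory kinase Wee1, and the mitotic kinases Plk1 and Aurka. They were picked out by their symbols, with no threshold on a measured value, and each symbol matched 1 of the 31053 genes in the deposited count tables. SN4741, a cultured mouse line, was profiled by single-cell RNA-seq in 8 libraries. The 4 libraries of the 37 °C group came from cells grown in medium with 10% fetal bovine serum. The 4 libraries of the 39 °C group came from cells moved to 39 °C and 0.5% serum and kept there for 48 h before harvest, so temperature, serum and time in that medium cannot be told apart. Both groups are wild type per the labels and carry the same transgene, a temperature-sensitive SV40 large T antigen driven by a fragment of the tyrosine hydroxylase promoter. The T antigen, which drives proliferation, is held to be active at 37 °C and to lose function at 39 °C. The line is described as a single clone from embryonic substantia nigra with an unstable and mostly triploid karyotype, so the number of gene copies may differ from cell to cell. Nothing in the labels says that replicates were separate cultures, and p-values then measure only the spread between these libraries.

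After filtering, 18351 of 19125 cells remained, 985 to 3494 per library, and the kept cells of a library held 17166686 to 29633818 UMIs (unique molecular identifiers, each counting 1 captured RNA molecule). Library 39 °C replicate 1 stood apart, with the fewest kept cells (985), the highest median depth (16665 UMIs per cell against 6676 to 9886 in the other 39 °C libraries) and 11.9% of its cells over the upper limit on genes. That library gave 28 G2M cells, and for the members that passed the test in G2M cells the fold changes are also given without it. At most 5 barcodes were shared between any of the 28 pairs of libraries. Of the markers of the labelled cell type, neural precursors, Vim, Nes and Sox2 were present, with Nes at 462 CPM (counts per 1000000 counts) in the pooled 37 °C cells and 110 CPM in those at 39 °C, whereas Sox1, Pax6, Msi1, Fabp7 and Hes5 were at 0.103 CPM or below in either pool. The dopaminergic markers Th, Slc6a3, Pitx3 and Lmx1b were at or below 0.0411 CPM. Of the mesenchymal markers, Col1a1 and Acta2 were present at both temperatures, at 1016 and 223 CPM at 37 °C and at 581 and 26.0 CPM at 39 °C, and their part in the results below was not tested.

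As background, a cyclin-dependent kinase acts only when bound to a cyclin and free of inhibitory phosphates. Cdk4 and Cdk6 pair with D-type cyclins in G1, Cdk2 with cyclins E and A at the start of and during S phase, and Cdk1 with cyclins A and B to drive mitosis. Wee1 adds the inhibitory phosphate and the CDC25 phosphatases remove it. Plk1 and Aurka promote entry into mitosis and build the spindle, and transcripts of both, like those of Cdk1 and Cdc25c, are known to accumulate late in the cycle and to be held down in resting cells through promoter elements that bind the DREAM and B-MYB complexes.

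The promoters are shown because the transcript levels of Cdk1, Plk1 and Aurka moved most among the members with a sequence, while Cdc25b shared much of their pattern over the cycle but changed far less between temperatures. RefSeq promoter windows on GRCm38.p6, from 250 bases before to 50 bases after the transcription start, were at hand for 8 of the 10 members; Cdc25c and Wee1 had no entry. Each is written 5′ to 3′ on the strand of the gene. Capitals mark matches on either strand to 4 kinds of motif: CCAAT (bound by NF-Y), TTTGAA (the cell cycle genes homology region, CHR), the similar TTTAAA, and the E2F-type strings TTTCCCGC, TTTCGCGC, TTTGCCGC and TTTGGCGC. No marked match overlaps another. The windows lie at chr10:69352863-69353162 (minus strand) for Cdk1, chr7:122159185-122159484 (plus) for Plk1, chr2:172370521-172370820 (minus) for Aurka and chr2:131186698-131186997 (plus) for Cdc25b.
Cdk1: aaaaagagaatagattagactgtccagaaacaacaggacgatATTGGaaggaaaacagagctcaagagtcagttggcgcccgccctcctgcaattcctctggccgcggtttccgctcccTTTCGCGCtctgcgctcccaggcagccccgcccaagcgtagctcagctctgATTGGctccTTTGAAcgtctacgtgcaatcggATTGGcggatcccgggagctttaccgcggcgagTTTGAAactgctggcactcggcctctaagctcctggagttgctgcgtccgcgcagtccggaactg
Plk1: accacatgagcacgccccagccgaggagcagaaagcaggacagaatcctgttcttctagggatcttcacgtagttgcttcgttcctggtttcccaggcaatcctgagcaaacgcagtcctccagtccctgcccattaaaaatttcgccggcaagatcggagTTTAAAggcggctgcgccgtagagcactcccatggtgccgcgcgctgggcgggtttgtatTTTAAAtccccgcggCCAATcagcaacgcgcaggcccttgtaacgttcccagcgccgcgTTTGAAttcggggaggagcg
Aurka: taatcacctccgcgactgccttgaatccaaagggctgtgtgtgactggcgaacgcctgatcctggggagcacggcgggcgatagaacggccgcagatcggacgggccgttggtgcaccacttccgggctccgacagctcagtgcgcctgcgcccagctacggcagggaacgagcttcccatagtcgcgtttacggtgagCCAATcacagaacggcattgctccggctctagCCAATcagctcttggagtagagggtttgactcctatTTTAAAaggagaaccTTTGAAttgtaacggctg
Cdc25b: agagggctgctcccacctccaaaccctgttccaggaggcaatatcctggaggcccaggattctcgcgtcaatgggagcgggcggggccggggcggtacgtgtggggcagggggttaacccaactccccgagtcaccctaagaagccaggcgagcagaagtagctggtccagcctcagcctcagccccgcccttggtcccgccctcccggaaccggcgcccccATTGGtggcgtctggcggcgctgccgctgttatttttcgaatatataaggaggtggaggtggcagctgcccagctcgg

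In these windows Cdk1 held TTTGAA at positions -71 and -15 and CCAAT, read on the other strand, at -208, -80 and -48, with positions counted from the transcription start to the leftmost base. Plk1 held TTTGAA at position 31 and CCAAT at -14, and Aurka held TTTGAA at position 33 and CCAAT at -51 and -19. Cdc25b held CCAAT, read on the other strand, at -28 and none of the other motifs. TTTGAA occurred in 3 of the 8 member windows, the 3 just named, and in 17.9% of 32851 RefSeq mouse promoter windows of the same length. CCAAT occurred in 6 of the 8 and in 37.4% of all windows, and both together in 6.95% of all windows. An E2F-type string was found in Cdk1, Cdk2 and Cdc25a and in 2.26% of all windows, TTTAAA in Plk1 and Aurka and in 13.2% of all windows, and the windows of Cdk4 and Cdk6 held none of these letters. A match is a description of the sequence and no measure of binding. Whether these motifs have a part in the changes between temperatures was not tested.

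Over all kept cells of a library, summed before testing, all 10 members were lower at 39 °C than at 37 °C, with adjusted p-values under 0.05 (edgeR quasi-likelihood test, Benjamini-Hochberg adjusted over 15810 genes), and no member's groups overlapped. Against this, 62.0% of all genes tested passed the same test and 30.5% passed it with a lower level at 39 °C, while 56.7% of genes did not overlap between groups, 28.0% with the lower level at 39 °C. The members' median log2 fold change was -0.82, beside a median of 0.02 over all genes. The stricter call, an adjusted p under 0.01 with a log2 fold change over 1.5 in size, was met by 4 members, Plk1, Cdc25c, Aurka and Cdk1, and by 5.83% of all genes, 3.62% lower at 39 °C. Sums over a library fall alike when fewer cells of a phase are present and when each such cell holds less RNA, and these cannot be told apart in them. The share of cells assigned to G2M was 33.5 to 36.0% in the 37 °C libraries and 2.84 to 4.92% in the 39 °C libraries, and that of cells assigned to G1 was 21.2 to 29.0% and 82.9 to 85.4%.

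Cdk1 (chr10:69335146-69352938, GRCm38, minus strand), the kinase of mitotic entry, measured 143.8, 164, 177 and 178 CPM in the 37 °C libraries and 22.0, 22.8, 27.6 and 25.4 CPM in the 39 °C libraries. Every 37 °C library was above every 39 °C library by a wide gap, and the log2 fold change was -2.75 ± 0.08 (SE), with an adjusted p of 2.71e-16 by edgeR. Cdk2 (chr10:128697939-128705031, minus strand), which drives S phase, measured 17.0, 19.8, 22.0 and 19.3 CPM at 37 °C and 11.1, 11.2, 11.9 and 12.8 CPM at 39 °C. The groups stood apart, and the log2 fold change was -0.73 ± 0.08, with an adjusted p of 8.17e-08 by edgeR.

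The D-cyclin partners had log2 fold changes close to each other. Cdk4 (chr10:127063534-127067920, plus strand) went from 433 ± 29.7 CPM (SD, n = 4) to 266 ± 9.39 CPM, a log2 fold change of -0.70 ± 0.05 with an adjusted p of 1.19e-09 by edgeR. Cdk6 (chr5:3341485-3531008, plus strand) measured 96.7, 102, 103 and 104 CPM at 37 °C and 60.4, 61.4, 60.7 and 66.0 CPM at 39 °C. Its replicates were among the tightest of the members, and the log2 fold change was -0.71 ± 0.05, with an adjusted p of 9.98e-11 by edgeR.

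The 3 phosphatases did not change alike. Cdc25c, known for activating the mitotic Cdk1 complex, measured 12.2, 14.5, 13.6 and 15.03 CPM at 37 °C and 0.965, 1.14, 1.27 and 1.503 CPM at 39 °C, where it rested on 17 to 39 UMIs per library. Its level was 11.1-fold higher at 37 °C, the log2 fold change was -3.47 ± 0.12, and the adjusted p was 5.48e-15 by edgeR. Cdc25b (chr2:131186949-131198497, plus strand), linked to the onset of mitosis, went from 42.5 ± 1.15 to 22.6 ± 1.66 CPM, a log2 fold change of -0.91 ± 0.05 (adjusted p = 2.35e-11, edgeR). Cdc25a (chr9:109875579-109893895, plus strand), which acts at the entry into S phase as well as later, changed least of the 3, from 20.8 ± 0.954 to 14.6 ± 0.832 CPM (log2 fold change -0.50 ± 0.06, adjusted p = 3.34e-07, edgeR). The 95% intervals of the log2 fold changes of Cdc25a (-0.62 to -0.39), Cdc25b (-1.01 to -0.80) and Cdc25c (-3.71 to -3.24) did not overlap; the differences between genes were not tested.

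Wee1 (chr7:110122046-110143286, plus strand), the kinase that opposes the CDC25 phosphatases, changed least of all 10. It measured 37.1, 33.6, 36.2 and 37.6 CPM at 37 °C and 27.8, 28.2, 26.3 and 30.1 CPM at 39 °C, so the lowest 37 °C library was still above the highest at 39 °C. The log2 fold change was -0.36 ± 0.05 (adjusted p = 7.45e-06, edgeR).

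The mitotic kinases were at the other end. Plk1 (chr7:122159439-122169873, plus strand) measured 36.7, 41.2, 40.1 and 44.9 CPM at 37 °C and 3.29, 2.42, 3.08 and 2.24 CPM at 39 °C. It was 14.9-fold higher at 37 °C, with a log2 fold change of -3.90 ± 0.09 and an adjusted p of 6.80e-17 by edgeR. Aurka (chr2:172356190-172370535, minus strand), the spindle pole kinase that activates Plk1, measured 33.7, 38.4, 37.9 and 38.2 CPM at 37 °C and 3.35, 4.32, 4.25 and 3.08 CPM at 39 °C. It was 9.76-fold higher at 37 °C (log2 fold change -3.29 ± 0.08, adjusted p = 1.36e-16, edgeR), and the gap between groups was several times the spread within either. For 6 members (Cdk2, Cdk4, Cdk6, Cdc25b, Cdc25c and Wee1) a counted gene on the opposite strand overlaps the gene model, which could matter only where reads were counted without regard to strand; no counted gene overlaps any member on its own strand. Across the 160 values of the members under other filters, scalings, tests and left-out libraries, none changed direction or lost its adjusted p under 0.05, and the calls stayed those of Plk1, Cdc25c, Aurka and Cdk1.

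**Figure D1:**
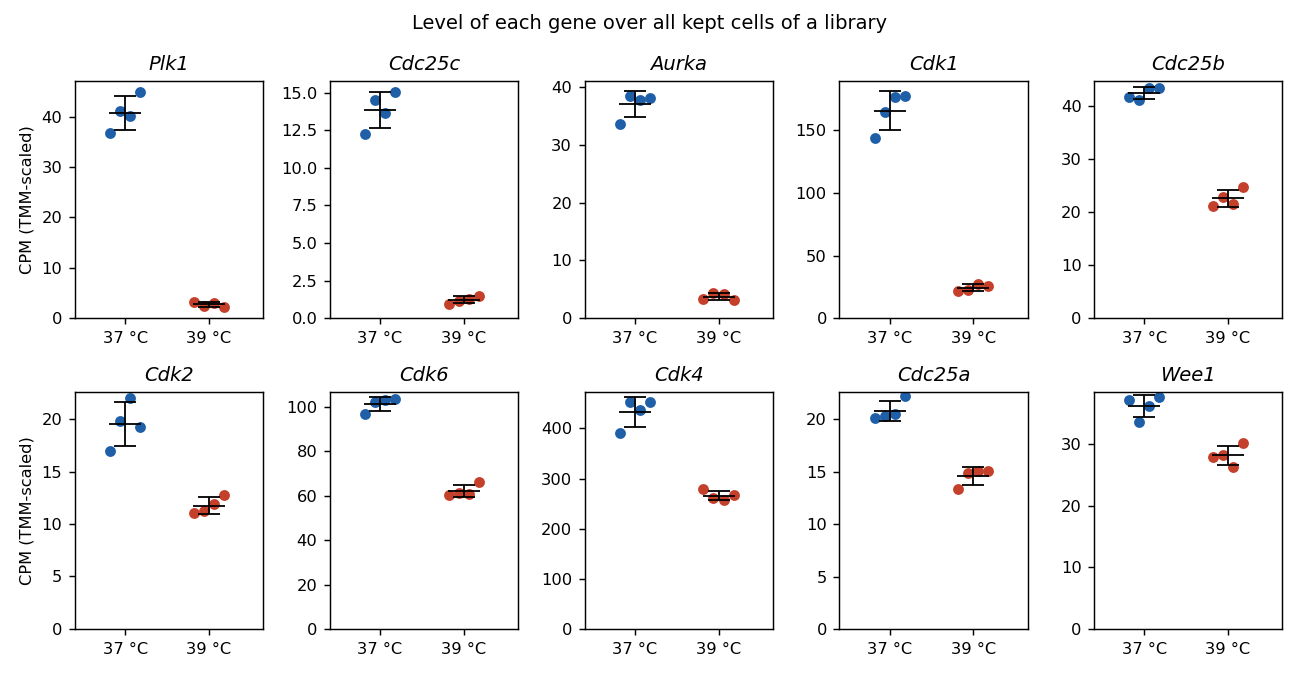
Level of each of the 10 genes in every library, in TMM-scaled CPM summed over all kept cells, with 37 °C in blue and 39 °C in red; each point is 1 library, and the black line and bar are the mean and SD of 4. Panels run from the largest change (Plk1, 40.7 to 2.76 CPM) to the smallest (Wee1, 36.1 to 28.1 CPM), each axis starts at 0, and in no panel do the groups overlap.

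The members were also compared by the share of cells that held a transcript. To compare shares at 1 depth, each cell was thinned to 5000 UMIs, which kept 7882 cells at 37 °C and 8133 at 39 °C and left out 668 and 1668 shallower ones. The share of cells with at least 1 Cdk1 UMI was 37.3, 41.7, 42.7 and 44.9% in the 37 °C libraries and 8.32, 8.93, 10.1 and 9.66% in the 39 °C libraries, with no overlap. Without thinning it was 60.1 ± 6.55% and 15.5 ± 4.04% (SD, n = 4), and the unthinned shares at 37 °C and 39 °C were 23.5% and 2.26% for Plk1, 22.7% and 3.63% for Aurka and 13.6% and 1.08% for Cdc25c. Plk1 went from 13.6 ± 1.33% to 1.14 ± 0.151% of cells, Aurka from 12.7 ± 0.892% to 1.598 ± 0.340%, and Cdc25c from 6.13 ± 1.37% to 0.563 ± 0.134%. Transcripts of these 3 genes were thus found in few cells at 39 °C. Cdk4 was found in most cells at either temperature, 85.6 ± 2.54% and 69.2 ± 0.430%, and Cdk6 in 34.6 ± 1.06% and 24.1 ± 1.58%. Cdc25b went from 16.1 ± 1.43% to 9.88 ± 0.702%, Cdk2 from 9.48 ± 0.760% to 5.63 ± 0.783%, and Cdc25a from 8.97 ± 0.403% to 6.58 ± 1.12%. Wee1 was the only member whose groups overlapped at this depth, with 13.9 to 16.7% of cells at 37 °C and 12.6 to 14.1% at 39 °C. So 9 of 10 members did not overlap, beside 45.5% of all genes, 22.1% lower at 39 °C. With cells thinned to 2500 UMIs all 10 were free of overlap (39.0% of all genes, 19.2% lower), and without thinning 6 were (14.5%, 11.0% lower), since Cdk2, Cdk4, Cdc25a and Wee1 overlapped there.

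Free RNA can place a UMI in a droplet whose cell does not make the transcript, and no cell type that should lack these genes was present for comparison. In cells assigned to G1, at the same 5000 UMIs, Plk1 was found in 1.40 ± 0.562% of cells at 37 °C and 0.456 ± 0.189% at 39 °C, and Aurka in 1.25 ± 0.592% and 0.977 ± 0.106%. In cells assigned to G2M the shares were 36.4 ± 2.59% and 17.8 ± 4.93% for Plk1, and 32.3 ± 1.40% and 14.6 ± 4.55% for Aurka. The 39 °C shares in G2M rest on 342 cells in all, and on 24 in replicate 1, without which they were 15.3 ± 1.19% for Plk1 and 16.6 ± 2.29% for Aurka (SD, n = 3).

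Cells with a transcript of 1 mitotic member often held another. At 37 °C, 40.1 ± 3.50% of the Plk1-positive cells also held Aurka, against 8.37 ± 1.06% of cells without Plk1. Of Cdc25c-positive cells, 39.0 ± 6.10% held Plk1, against 11.9 ± 1.04% of the others. The 2 temperatures differed in direction for the pair of Cdk2 and Plk1, with no test of either. Plk1 was found in 10.0 ± 2.33% of Cdk2-positive cells and 14.0 ± 1.27% of the others at 37 °C, and in 1.78 ± 0.347% and 1.10 ± 0.152% at 39 °C. The 39 °C share rests on 465 Cdk2-positive cells in all, very few of which held Plk1. At 39 °C 20.3 ± 8.32% of the Plk1-positive cells held Aurka, over 91 such cells in all. Counting Cdk1, Cdc25c, Plk1 and Aurka together, 50.1 ± 3.31% of cells at 37 °C and 88.9 ± 0.998% at 39 °C held none of the 4, and 0.910 ± 0.263% and 0.0315 ± 0.0629% held all 4.

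**Figure D2:**
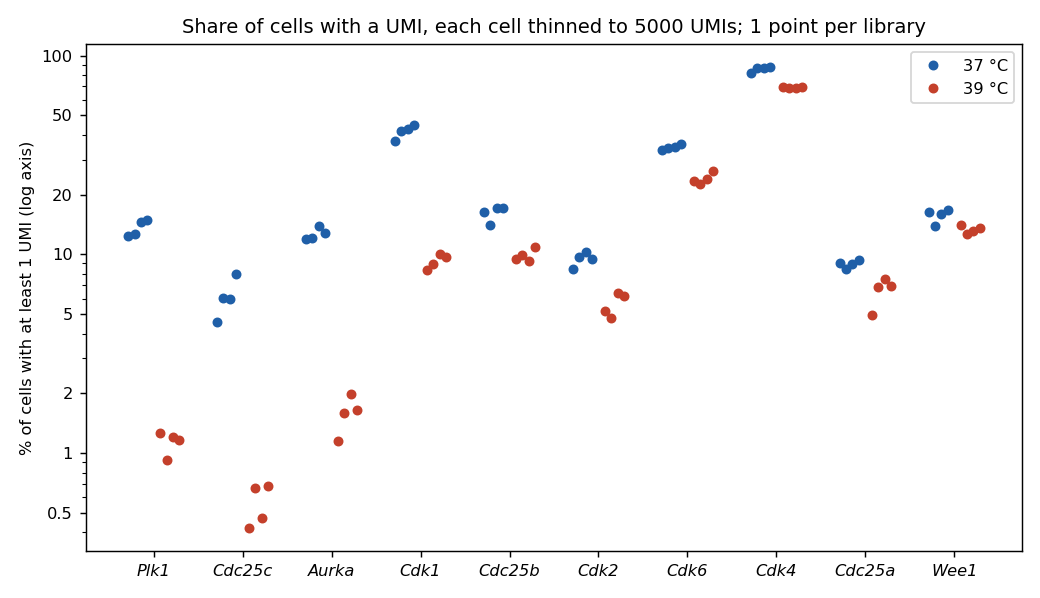
Share of cells with at least 1 UMI of each gene after thinning every cell to 5000 UMIs, on a log axis, with 1 point per library (37 °C blue, 39 °C red). Plk1, Cdc25c and Aurka are below 2% of cells in every 39 °C library, Cdk4 is at 68.7% or more in all 8 libraries, and Wee1 is the only gene whose points overlap between temperatures.

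Along the cell cycle at 37 °C the members fell into distinct courses. Phases came from S and G2M scores computed without the 10 members, and since they come from genes of the same cells, levels between phases are given as a description only. The ratio of CPM in G2M over G1 cells of a library was 36.5 ± 14.0 for Aurka (SD, n = 4), 35.6 ± 8.86 for Plk1, 22.9 ± 14.9 for Cdc25c and 12.7 ± 1.18 for Cdk1. Cdc25b followed with 4.03 ± 0.114. Cdc25a (1.84 ± 0.213), Wee1 (1.70 ± 0.203), Cdk2 (1.44 ± 0.172) and Cdk4 (1.199 ± 0.0196) changed less over the phases, and Cdk6 was lower in G2M than in G1 cells in every library (0.813 ± 0.072). In S over G1 cells Cdk1 already stood at a ratio of 4.90 ± 0.647, and Cdk2, Cdc25a and Cdk4 reached their highest phase level, at ratios of 2.15 ± 0.221, 2.39 ± 0.496 and 1.41 ± 0.032, while Plk1 stayed near its G1 level (1.12 ± 0.166).

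A finer view divided the plane of the S score (horizontal) and G2M score (vertical) into 8 sectors of equal angle, numbered from the S axis, so that sectors 8 and 1 hold cells of high S score, sectors 2 and 3 cells of high G2M score, and sectors 5 and 6 cells low in both. Cdk2, Cdk4 and Cdc25a were highest in sector 1, at 29.4 ± 4.46, 512 ± 39.3 and 28.8 ± 4.26 CPM. Cdk1 (332 ± 32.2 CPM) and Wee1 (48.3 ± 4.46 CPM) were highest in sector 2, where G2M score exceeds a still positive S score. Plk1 (142 ± 9.53 CPM), Aurka (110 ± 9.64 CPM), Cdc25b (97.5 ± 6.46 CPM) and Cdc25c (47.3 ± 6.24 CPM) were highest in sector 3, after the S score has dropped below 0. The highest sector was 76.3-fold above the lowest for Plk1, 55.1-fold for Cdc25c (over 12 UMIs in its lowest sector), 41.4-fold for Aurka, 15.5-fold for Cdk1 and 5.22-fold for Cdc25b, and 2.76-fold for Cdc25a, 2.496-fold for Cdk2, 1.93-fold for Wee1, 1.504-fold for Cdk4 and 1.37-fold for Cdk6. Between sectors 1 and 2 Wee1, which adds the phosphate that the phosphatases remove, went from 25.0 ± 3.20 to 48.3 ± 4.46 CPM. Of the phosphatases Cdc25b went from 27.7 ± 1.49 to 66.5 ± 3.42 CPM, Cdc25c from 5.39 ± 0.613 to 25.7 ± 0.687 CPM and Cdc25a from 28.8 ± 4.26 to 21.6 ± 1.67 CPM. Sector 4 held as few as 22 cells in a 37 °C library, and its values are loose.

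**Figure D3:**
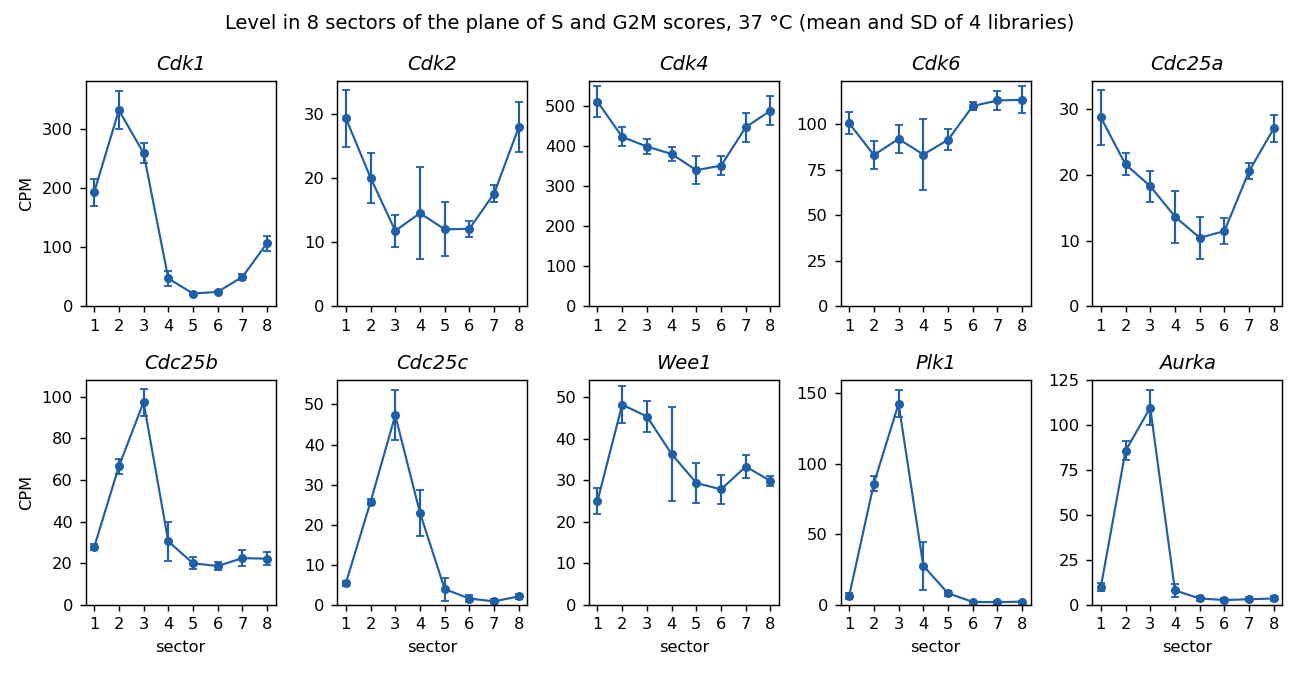
Mean level at 37 °C in 8 sectors of the plane of S and G2M scores, in CPM; points are means and bars SDs of 4 libraries, and sectors follow the cycle from high S score (1) through high G2M score (2 and 3) to cells low in both (5 and 6) and back to rising S score (7 and 8). Plk1, Aurka, Cdc25c and Cdc25b peak in sector 3, Cdk1 and Wee1 in sector 2, Cdk2, Cdk4 and Cdc25a in sector 1, and Cdk6 is nearly level.

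Within the 37 °C libraries the genes most like each member across cells were ranked by the mean Pearson correlation of log-normalized values over the 4 libraries, among 8421 genes. For Plk1 these were Cenpf (0.695), Hmmr (0.666) and Cenpe (0.658), for Aurka Cenpf (0.632), Aspm (0.603) and Hmmr (0.603), and for Cdc25c Cenpf (0.453), Hmmr (0.446) and Cenpa (0.431). For Cdk1 they were Top2a (0.688), Nusap1 (0.612) and Hmgb2 (0.594), and for Cdc25b Ube2c (0.413), Prc1 (0.405) and Nusap1 (0.400). Cells of a library share its preparation and differ in depth, and at a common depth of 5000 UMIs the highest values were lower, 0.526 for Plk1, 0.524 for Cdk1 and 0.476 for Aurka, with Cenpf, Top2a and Cenpf again the nearest. The other 5 members had only weak correlations, from which nothing is read. Cdk4 was nearest to Cd63 (0.278), Ranbp1 (0.244) and Nap1l1 (0.220), and Cdk6 to Fbn1 (0.203), Timp3 (0.198) and Nes (0.193). For Wee1, Cdc25a and Cdk2 the highest values were 0.177 (Prc1, before Nusap1 and Ube2c), 0.143 (Pclaf, before Atad2 and Hells) and 0.138 (Mcm5, before Dek and Mcm3). Among the members, Plk1 and Aurka had the highest correlation with each other, 0.563 at 37 °C (0.504 to 0.651 over libraries) and 0.272 at 39 °C, and Cdk6 with any other member did not exceed 0.0494 at 37 °C.

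Cells assigned to the same phase were then compared between temperatures, which asks how much of each gene's lower level is seen within an assigned phase. Cells of the same assigned phase still differed in score. Library medians of the S score in G1 cells were -0.120 to -0.111 at 37 °C and -0.179 to -0.159 at 39 °C. Those of the G2M score were -0.222 to -0.202 and -0.209 to -0.192. The part of these differences in the changes within G1 cells was not tested. In G1 cells (2098 at 37 °C, 8250 at 39 °C), 5 members were lower at 39 °C with an adjusted p under 0.05 and 1 was higher, beside 47.4% of 14724 genes passing in either direction and 22.4% lower; 2 members (Cdc25c and Plk1) were called, both lower, beside 2.61% of genes, 1.55% lower. Cdk1 measured 24.6, 21.5, 24.3 and 23.9 CPM at 37 °C and 9.48, 8.97, 9.93 and 9.16 CPM at 39 °C. These groups stood far apart, with a log2 fold change of -1.33 ± 0.08 (adjusted p = 8.54e-12, edgeR). Plk1 fell by 1.83 ± 0.27 on the log2 scale (adjusted p = 4.74e-06, edgeR) from 3.02 to 0.867 CPM, over 13 to 23 UMIs per library. Cdc25c fell by 2.31 ± 0.44 (adjusted p = 0.000118, edgeR) from 1.93 to 0.348 CPM, over 5 to 19 UMIs per library at 37 °C and 2 to 12 at 39 °C. Both thus rest on very few molecules. Cdk6 went from 106 ± 2.69 to 62.9 ± 1.73 CPM (log2 fold change -0.76 ± 0.05, adjusted p = 2.61e-11, edgeR), as large a change as over all cells, and Cdk4 from 347 ± 19.6 to 241 ± 11.2 CPM (-0.53 ± 0.05, adjusted p = 4.12e-08, edgeR). Cdk2 (-0.20 ± 0.10), Cdc25b (0.14 ± 0.08), Wee1 (-0.06 ± 0.08) and Aurka (-0.27 ± 0.25) did not pass, and their groups overlapped. With each library scored by itself, which assigned 54.4 to 59.7% of the 39 °C cells to G1, 8 members passed and 3 were called, and Cdk2 (-0.60), Wee1 (-0.27) and Aurka (-0.86) were then lower (adjusted p = 4.72e-05, 0.00587 and 0.000404, edgeR). Over all alternatives the adjusted p-values ran up to 0.689 for Cdk2, 0.914 for Wee1 and 0.987 for Aurka, with these as the lowest. With each library scored by itself more genes were called in all, and the share of all genes passing was not taken. The counts of 8 and 3 members are therefore not read as a result about the members.

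Cdc25a was the 1 member that passed with a higher level at 39 °C in G1 cells, at 12.4, 9.28, 9.73 and 13.4 CPM at 37 °C and 12.3, 13.6, 13.8 and 14.7 CPM at 39 °C. The groups overlapped, and the adjusted p lay close to the threshold (log2 fold change 0.27 ± 0.11, adjusted p = 0.0413, edgeR). Cdc25a no longer passed under RLE scaling, under the filterByExpr filter, under DESeq2, and without 37 °C replicate 2 (0.20) or 3 (0.21) or 39 °C replicate 2 (0.28), 3 (0.27) or 4 (0.24), with adjusted p-values from 0.0158 to 0.277 over all alternatives, and its direction turned (-0.12) when each library was scored by itself.

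In S cells (3495 and 1120) 6 members were lower at 39 °C with an adjusted p under 0.05, beside 43.8% of 13768 genes in either direction and 23.6% lower, and no member was called, beside 2.30% of genes. Cdk1 went from 117 ± 11.2 to 74.5 ± 6.88 CPM (log2 fold change -0.65 ± 0.08, adjusted p = 5.25e-08, edgeR), Cdk6 from 114 ± 5.22 to 67.9 ± 11.4 CPM (-0.73 ± 0.08, adjusted p = 8.96e-09, edgeR) and Cdk4 from 499 ± 32.7 to 430.5 ± 8.30 CPM (-0.21 ± 0.06, adjusted p = 0.00564, edgeR). Cdc25a, which rises in S phase, measured 25.6, 26.7, 27.8 and 25.8 CPM at 37 °C and 17.7, 21.7, 24.7 and 14.96 CPM at 39 °C. The groups did not overlap (log2 fold change -0.42 ± 0.12, adjusted p = 0.00361, edgeR). Plk1 (-0.84 ± 0.32, adjusted p = 0.0349, edgeR) and Aurka (-0.87 ± 0.31, adjusted p = 0.0231, edgeR) passed on 3 to 8 and 4 to 14 UMIs per 39 °C library, with groups that overlapped. Without 39 °C replicate 4 Cdc25a (-0.29), Plk1 (-0.77) and Aurka (-0.81) no longer passed, which left 3 members. Plk1 was also lost under DESeq2 (-0.83), with the full phase lists (-0.68) and without 37 °C replicate 1 (-0.75) or 4 (-0.79) or 39 °C replicate 1 (-0.77) or 2 (-0.72), and Aurka without 37 °C replicate 1 (-0.76) or 39 °C replicate 1 (-0.77) or 3 (-0.69). Over all alternatives the edgeR or DESeq2 adjusted p-values ran from 1.24e-08 to 0.0559 for Cdc25a, from 3.91e-06 to 0.116 for Plk1 and from 3.21e-05 to 0.114 for Aurka. Cdk2 passed in 3 of 15 alternatives, among them without 37 °C replicate 4 (-0.29) or 39 °C replicate 3 (-0.31). Its values ran from -0.74 to -0.18, with edgeR or DESeq2 adjusted p-values from 3.13e-07 to 0.268. Cdc25c passed in 1 alternative and ran from -1.69 to -0.33 (edgeR or DESeq2 adjusted p-values 2.03e-05 to 0.493). With the main settings Cdk2, Cdc25b, Cdc25c and Wee1 did not pass, at log2 fold changes of -0.23 ± 0.11, -0.07 ± 0.11, -0.53 ± 0.33 and 0.16 ± 0.09.

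In G2M cells (2957 and 431) 5 members were lower with an adjusted p under 0.05, beside 29.1% of 13759 genes in either direction and 16.0% lower, and no member was called, beside 1.93% of genes. For 6 members the groups did not overlap, as for 32.7% of genes. Aurka measured 85.1, 101, 95.8 and 91.6 CPM at 37 °C and 34.1, 36.1, 43.8 and 29.3 CPM at 39 °C, with a wide gap between groups (log2 fold change -1.36 ± 0.12, adjusted p = 1.35e-11, edgeR). Plk1 measured 95.5, 109, 107 and 109 CPM at 37 °C and 78.8, 41.8, 41.0 and 30.8 CPM at 39 °C. Replicate 1 at 39 °C, with 28 G2M cells and 37 Plk1 UMIs, was well above the other libraries of its group. The log2 fold change was -1.30 ± 0.13 (adjusted p = 2.77e-10, edgeR) with that library and -1.49 ± 0.12 without it. Cdc25c (-0.97 ± 0.16, adjusted p = 1.13e-05), Cdk6 (-0.90 ± 0.11, adjusted p = 3.01e-08) and Cdk1 (-0.60 ± 0.09, adjusted p = 1.66e-06; all by edgeR) also fell, and without replicate 1 at 39 °C their values were -1.07, -0.90 and -0.65, and that of Aurka was -1.36. Cdc25b went from 77.6 ± 1.81 to 64.0 ± 5.10 CPM with no overlap, but its log2 fold change of -0.25 ± 0.10 did not pass (adjusted p = 0.0548, edgeR). It did pass in 3 of 17 alternatives, among them without 39 °C replicate 3 (-0.31). Over all alternatives its values ran from -1.27 to 0.34, with edgeR or DESeq2 adjusted p-values from 2.07e-14 to 0.385. Cdk4 (-0.08 ± 0.08), Cdk2 (0.01 ± 0.19), Cdc25a (0.27 ± 0.16) and Wee1 (-0.06 ± 0.12) did not pass either; the 95% interval for Cdk4 was -0.24 to 0.08.

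**Figure D4:**
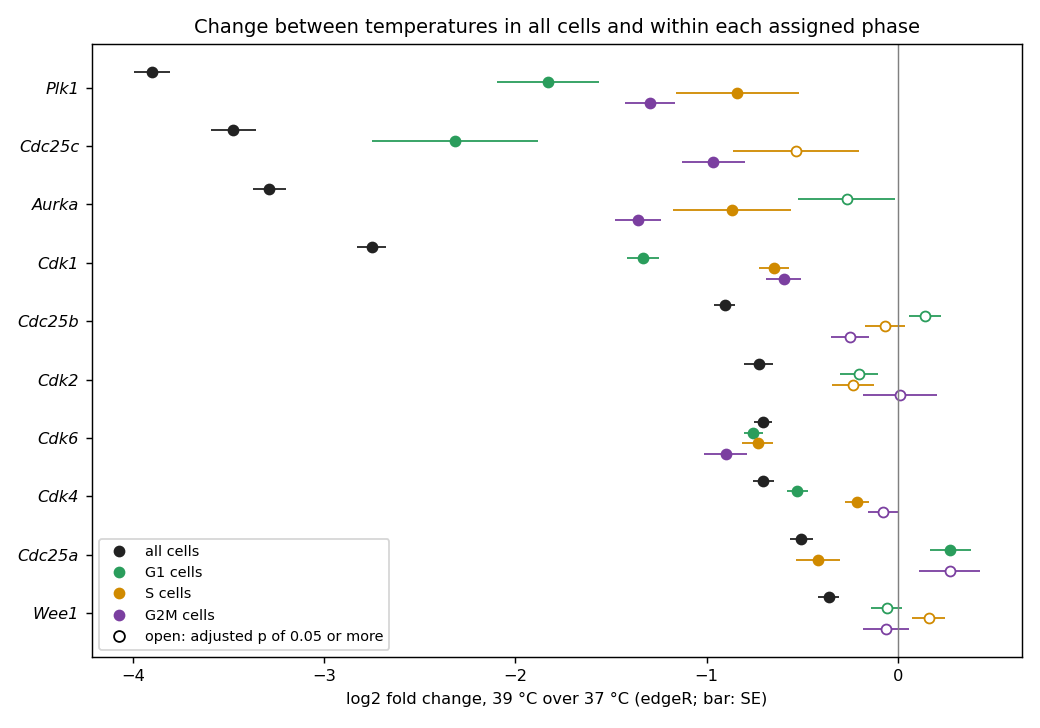
Log2 fold change from 37 °C to 39 °C of each gene over all cells (black) and within cells assigned to G1 (green), S (orange) and G2M (purple), with bars for the standard error; negative values are lower at 39 °C and open circles have an adjusted p of 0.05 or more. Over all cells every gene is below 0, while within phases Cdk6 keeps a like change (-0.73 to -0.90) and Cdk2, Cdc25b and Wee1 lie between -0.25 and 0.16.

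Cells assigned to G2M differed in their G2M score, which is itself computed from the levels of late cell cycle genes. The median was 0.530 at 37 °C and 0.270 at 39 °C. In a comparison added after seeing the data, 529 of the 37 °C cells were drawn so that their scores matched those of the 431 cells at 39 °C, to medians of 0.268 and 0.270. Then 3 members passed instead of 5. The share of all genes passing after matching was not taken, so that drop is not read as a result about the members. Cdk6 kept its change, with a log2 fold change of -0.82 ± 0.13 and an adjusted p of 3.21e-06 by edgeR (1.91e-13 to 3.21e-06 over all alternatives). Cdc25c stood at -0.68 ± 0.20 (adjusted p = 0.00861; 1.59e-16 to 0.00861 over all alternatives) and Plk1 at -0.52 ± 0.16 (adjusted p = 0.0158; 3.99e-26 to 0.0158), both by edgeR and both nearer to 0 than before. Aurka at -0.39 ± 0.15 (adjusted p = 0.0574; 2.80e-26 to 0.105) and Cdk1 at -0.09 ± 0.11 (adjusted p = 0.631; 5.42e-18 to 0.631) no longer passed by edgeR. Cdc25b turned to 0.34 ± 0.13 and Wee1 to 0.14 ± 0.16, neither past the test. Matched again without 39 °C replicate 1 (504 and 403 cells), Plk1 stood at -0.83 ± 0.15, Cdc25c at -0.76 ± 0.21 and Cdk6 at -0.90 ± 0.13, which passed, and Aurka at -0.38 ± 0.17 and Cdk1 at -0.11 ± 0.09, which did not. Since the score reads genes that vary together with the members, what part of the change matching removes was not tested.

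**Figure D5:**
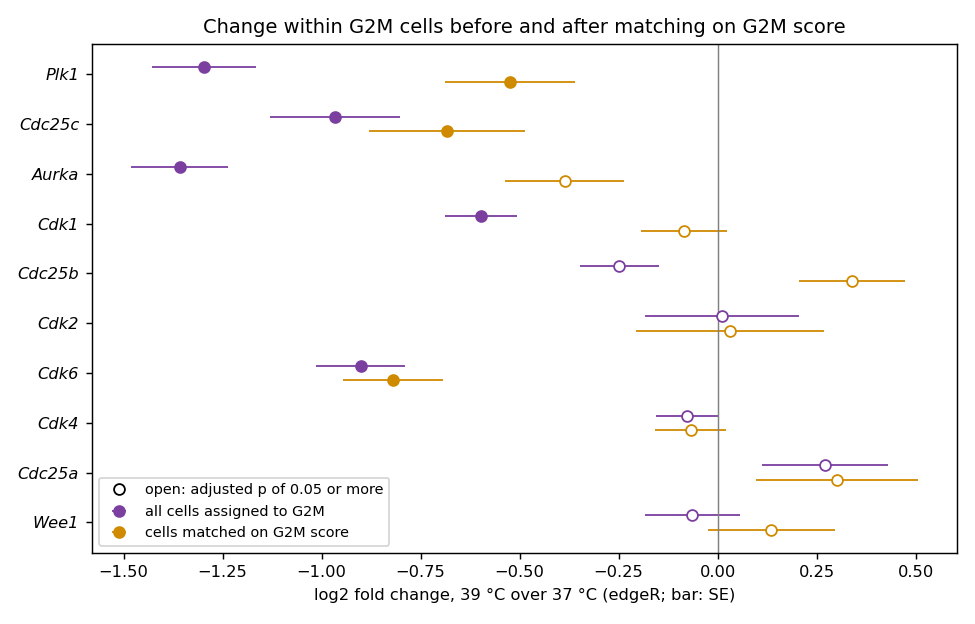
Log2 fold change from 37 °C to 39 °C within cells assigned to G2M, for all such cells (purple) and after matching the 37 °C cells to those at 39 °C on G2M score (orange), with bars for the standard error and open circles for an adjusted p of 0.05 or more. After matching, Plk1 moves from -1.30 to -0.52, Aurka from -1.36 to -0.39 and Cdk1 from -0.60 to -0.09, while Cdk6 stays near its value (-0.90 and -0.82).

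Whether the change differed between G2M and G1 cells was tested directly, as the interaction of temperature and phase with library as a block. It passed for 5 members, beside 7.23% of 14367 genes (2.53% with a higher and 4.70% with a lower value in G2M), and was called for none, beside 0.278% of genes. The change was smaller in G2M than in G1 cells for Cdk1 (difference 0.74 ± 0.11, adjusted p = 7.74e-08, edgeR), for Cdk4 (0.46 ± 0.06, adjusted p = 1.11e-09, edgeR) and for Cdc25c (1.33 ± 0.40, adjusted p = 0.0226, edgeR). It was larger in G2M cells for Aurka (-1.06 ± 0.24, adjusted p = 0.00117, edgeR), which fell in G2M and did not pass in G1. For Cdc25b the difference was -0.40 ± 0.12 (adjusted p = 0.0303, edgeR). Its change was 0.14 in G1 and -0.25 in G2M cells, opposite in sign, and neither passed by itself. Aurka in G1 cells rested on 9 to 25 UMIs per 37 °C library. The interaction was not run on cells matched on G2M score, where Aurka no longer passed in G2M cells. Nor was it run with each library scored by itself, where Aurka did pass in G1 cells (-0.86) and Cdk4 in G2M cells. The Cdc25c result was lost without 37 °C replicate 4 (0.93) and without 39 °C replicate 1 (1.05) or 3 (1.26). That of Cdc25b was lost without any of 37 °C replicates 1, 2 and 4 and 39 °C replicates 2 and 4 (-0.33 to -0.41) and under RLE scaling or the filterByExpr filter, and both were lost under DESeq2. Over all alternatives their adjusted p-values ran from 0.00193 to 0.227 for Cdc25c and from 0.0130 to 0.200 for Cdc25b. Plk1 (0.61 ± 0.27, adjusted p = 0.176, edgeR) and Cdk6 (-0.15 ± 0.12, adjusted p = 0.568, edgeR) did not pass.

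The wider set of 44 genes that regulate or carry out the same steps was counted whole. Over all cells 35 were lower at 39 °C with an adjusted p under 0.05, 5 were higher and 4 did not pass (edgeR), beside 30.5% of all genes lower and 31.5% higher, and 17 were called, all lower, beside 3.62% of all genes, with a median log2 fold change of -1.14. Of the 8 cyclins, 7 were lower, led by Ccne1 (-4.25 ± 0.13), Ccnb2 (-4.19 ± 0.08), Ccna2 (-3.80 ± 0.09) and Ccnb1 (-3.01 ± 0.08). Ccne1 is the partner of Cdk2 at the start of S phase, Ccna2 a partner of Cdk1 and Cdk2, and the B-type cyclins are partners of Cdk1. Ccnd1, a D-type partner of Cdk4 and Cdk6, was the only cyclin that was higher (0.37 ± 0.05). The other D-type cyclins, Ccnd2 and Ccnd3, were among the 7 that were lower. All 9 other kinases were lower, among them the spindle checkpoint kinases Bub1 (-3.38 ± 0.07) and Ttk (-2.77 ± 0.10) and the chromosomal passenger kinase Aurkb (-3.33 ± 0.07). The transcription factors Mybl2 (-2.84 ± 0.09) and Foxm1 (-2.74 ± 0.11), activators of late cell cycle genes, and Fbxo5 (-2.77 ± 0.07), an inhibitor of the anaphase-promoting complex, fell as well. The CDK inhibitors were split: 3 were higher, Cdkn2c (1.03 ± 0.05), Cdkn1a (0.81 ± 0.06) and Cdkn1b (0.15 ± 0.06), 3 were lower and 1 did not pass. Their log2 fold changes ran from -1.48 to 1.03 with a median of 0.09, so the largest change among them was a fall. In the CDK-activating kinase Ccnh fell by 0.15 ± 0.05 on the log2 scale, and Cdk7 (-0.09 ± 0.06) and Mnat1 (-0.10 ± 0.05) did not pass. In G1 cells 20 of the 44 were lower, 8 higher and 16 did not pass, beside 22.4% of all genes lower and 25.0% higher. In G2M cells 21 were lower, 6 higher and 17 did not pass, beside 16.0% lower and 13.1% higher.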

How the data were processed

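Cells were captured with the Chromium 3' V3 kit, and per the labels and methods the authors used Cell Ranger 3.0.1 and mm10 (GRCm38) and deposited UMI counts per gene and cell, whole numbers without normalization. The study's cell filters were kept (mitochondrial share over 15%, under 200 or over 6000 genes), and doublets were treated only by that upper limit. Phases were assigned with Seurat 5.3.0 on its lists without the members (3 were in the G2M list), which changed the phase of 137 cells (0.747%). In 2126 cells the higher score lies within 0.05 of the limit between G1 and the other phases. Cells near the limit between S and G2M were not counted. Raw counts were summed per library, or per library and phase. Genes averaging 1 count or more were tested with edgeR 4.0.16 (R 4.3.3; TMM, glmQLFit, glmQLFTest, Benjamini-Hochberg), with temperature as the only term, and each standard error was derived from the fold change and its F statistic. CPM of sums were TMM-scaled, those of sectors and markers plain. Libraries of a temperature were compared pairwise to look for duplicates, and none of the 12 pairs matched within sampling noise (chi-square statistic over its degrees of freedom 2.85 to 21.4). Alternatives were RLE scaling, filterByExpr or no filter, DESeq2 1.42.0, a block for replicate number, each library left out, other cell filters, equal totals, full phase lists and each library scored by itself. Matching on G2M score, with and without 39 °C replicate 1, and a stricter G1 limit were chosen after seeing the data. Sequences are from RefSeq (GRCm38.p6) and gene positions from GENCODE M21. The scripts were tested on simulated data. Named genes were the members, the 3 nearest genes of each member with at least 0.1 UMI per cell, and at most 12 genes of the pathway list by size of change; Ccnd1, the CDK inhibitors, Ccnh, Cdk7 and Mnat1 were named after their values were seen. The members and lists were chosen with earlier results of these data known.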

Additional observations from a re-analysis of the deposited data

Results flagged for a closer look

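In 100 groups of 4 libraries (each member's level over all cells and per phase, and its share of cells), 7 held a library far from the other 3 by Dixon's criterion, which chance gives in about 1 in 20 groups. Over all cells these were Cdk6 in 39 °C replicate 4 (66.0 CPM against 60.4 to 61.4), Cdc25a in 37 °C replicate 4 (22.2 CPM against 20.1 to 20.5) and in 39 °C replicate 1 (13.3 CPM against 14.8 to 15.1), and Aurka in 37 °C replicate 1 (33.7 CPM against 37.9 to 38.4). In G1 cells it was Cdk2 in 37 °C replicate 1 (10.6 CPM against 12.2 to 12.6), and in S cells Cdk4 in 37 °C replicate 1 (450.2 CPM against 514 to 518) and Plk1 in 39 °C replicate 3 (2.86 CPM against 1.42 to 1.63).

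For 5 members the change in G2M cells differed from that in G1 cells by the test of the difference itself: Cdk1 by 0.74, Cdk4 by 0.46, Cdc25b by -0.40, Cdc25c by 1.33 and Aurka by -1.06 on the log2 scale, G2M minus G1. That test was not run on cells matched on G2M score or with each library scored by itself.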

How the results depend on the processing

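Over all cells, each of the 160 alternative values of the members kept its direction and its side of the threshold. Within phases the assignment mattered most. With each library scored by itself, 54.4 to 59.7% of cells at 39 °C were G1, and called genes numbered 582 in G1 (384 with all libraries scored together), 651 in S (316) and 803 in G2M cells (265). Then 3 members were called in S and 4 in G2M cells, 9 members passed in G2M cells, and Cdc25a (-0.12) and Cdc25b (-0.072) in G1 cells and Cdk2 (-0.37) and Cdc25a (-0.22) in G2M cells turned lower; in G1 cells 8 members passed, Cdk2 (-0.60), Wee1 (-0.27) and Aurka (-0.86) among them. The filterByExpr filter, which left out Cdc25c, called 1 member in G1 cells. Matching on G2M score left 3 members past the threshold and turned Cdc25b (0.34) and Wee1 (0.14); also without 39 °C replicate 1 it left 3, with 163 genes called and Cdk2 (-0.12), Cdc25b (0.18) and Wee1 (0.13) turned. G1 cells clear of the limit put Wee1 at 0.053. DESeq2 left 3 members in the phase interaction. The cause of these changes was not tested. Shares of all genes passing were taken only with the main settings. The counts of members under the alternatives, those with a library left out among them, are therefore not read as results about the members.

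With each library left out in turn, members past the threshold numbered 3 to 6 in S cells and 3 to 5 in the interaction. The number called was 0 to 1 in G2M cells (1 without 39 °C replicate 3) and 0 to 1 in the interaction (1 without 37 °C replicate 1 or 39 °C replicate 4). Of all genes, 233 to 279 were then called in G2M cells and 36 to 43 in the interaction. Values near 0 changed sign: Wee1 in G1 cells (-0.099 to 0.021), Cdk2 in G2M cells (-0.086 to 0.091), and in the interaction Cdc25a (-0.11 to 0.11) and Wee1 (-0.11 to 0.059). In the interaction Cdc25a was 0.042, 0.023 and 0.054 and Wee1 0.050, 0.031 and 0.068 under RLE scaling, filterByExpr and DESeq2.

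Replicate numbers were not taken to pair libraries, since same-numbered deviations correlated at -0.12, -0.12, -0.09 and 0.29 over 8358 genes. With the replicate block 878, 365, 312 and 278 genes were called in all, G1, S and G2M cells, no member changed its side of the threshold, and Cdk2 in G2M cells went to -0.031.

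Depth limits the phases, since at 39 °C G2M cells numbered 28 to 172 per library.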
